A study of Mus musculus with 3 samples.

Results

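Levels of 7 genes of signalling through cyclic AMP (cAMP) were measured in Ly6Chi monocytes from the acetaminophen-injured mouse liver: Ramp1, Calcrl, Ptger2, Ptger4, Adora2a, Adora2b and Ptgs2. They were found by symbol, all 7 of them, among 53802 features, and were chosen from measured values, their UMI counts in these libraries, with Ramp1 among the genes nearest the threshold in an earlier comparison of knockout with control. Their knockout and control levels are therefore given as a description, and nothing is read from a test of them. The tests below compare kinds of monocyte within a library, a contrast other than knockout against control. Whether levels by kind of cell had a part in choosing the genes is not known, and the p-values carry that limit.

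RAMP1 is a small membrane protein that cannot signal alone. With the receptor CALCRL it forms the receptor for calcitonin gene-related peptide (CGRP), whereas RAMP2 or RAMP3 turn CALCRL into an adrenomedullin receptor. That receptor, the prostaglandin E2 receptors EP2 (Ptger2) and EP4 (Ptger4) and the adenosine receptors Adora2a and Adora2b couple to the stimulatory G protein Gs, raise cAMP, and in myeloid cells are known for restraining inflammatory cytokine output. Ptgs2 encodes cyclooxygenase-2, the inducible enzyme that makes the precursor of prostaglandin E2.

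The knockout group, LysMDCommd10, was 1 library (knockout 4) from mice whose Commd10 is removed by LysM-Cre, a driver at the Lyz2 locus that acts across myeloid cells and so not in monocytes alone. The control group, Commd10fl/fl, was 2 libraries (control 1 and control 3) with floxed, undeleted Commd10. All mice were C57BL/6 males of 8 weeks, fasted for 12 h, given 300 mg/kg acetaminophen into the peritoneum and sorted at 24 h for Ly6Chi liver monocytes. No uninjured liver was among the samples. The labels do not say how many mice a library held. For knockout against control, p-values reflect spread from library to library. For kinds of cell compared within a library, they reflect how far the difference between the kinds varied from library to library. Either spread is possibly technical.

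The deposited matrices held 30302932 UMIs (unique molecular identifiers, counted once per captured transcript) in 5152 barcodes of knockout 4, 40092348 UMIs in 4814 barcodes of control 1 and 72867668 UMIs in 8109 barcodes of control 3. The design text states 5229, 4860 and 8149 cells in that order. After filters, 4433, 4071 and 7400 monocyte-macrophage cells remained, with medians of 6871, 8779 and 8163.5 UMIs, so knockout cells were the shallowest. Between 8 and 26 barcodes were shared by any pair of libraries. Commd10 itself stood at 8.38 CPM (UMIs per 1000000 UMIs) in knockout 4, against 17.5 and 10.4 CPM in control 1 and control 3. The sources used here do not say whether its 3' reads lie in the deleted part, so these values may check nothing. The summed level of 6 monocyte-macrophage markers was 8913 CPM in knockout 4, against 17820 and 14140 CPM in the controls, and most of it was Lyz2, the locus that carries the Cre, at 6471 CPM against 15370 and 11570 CPM.

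On GRCm38 (GENCODE M21), Ramp1 lies at chr1:91179822-91225196 and Ptgs2 at chr1:150100031-150108227, both on the plus strand. Calcrl lies at chr2:84330626-84425411 on the minus strand, Adora2a at chr10:75316877-75334784 and Adora2b at chr11:62248984-62266453 on the plus strand. Ptger2 (chr14:44988195-45003820, plus strand) overlaps Gm49364 and Gm17173 on the other strand, and Ptger4 (chr15:5206661-5244187, minus strand) overlaps Ttc33 and Gm15937. The strand setting of the counting is not stated, so reads of these overlaps cannot be assigned with certainty. The promoters of Ramp1 and Ptgs2 are shown, from RefSeq (GRCm38.p6), because they were the members whose window of 250 bases before to 50 after the gene start held the cAMP response element half-site TGACG, searched on both strands as TGACG or CGTCA and capitalised. The Ramp1 window is chr1:91179572-91179871 and the Ptgs2 window chr1:150099781-150100080, both plus strand.
Ramp1: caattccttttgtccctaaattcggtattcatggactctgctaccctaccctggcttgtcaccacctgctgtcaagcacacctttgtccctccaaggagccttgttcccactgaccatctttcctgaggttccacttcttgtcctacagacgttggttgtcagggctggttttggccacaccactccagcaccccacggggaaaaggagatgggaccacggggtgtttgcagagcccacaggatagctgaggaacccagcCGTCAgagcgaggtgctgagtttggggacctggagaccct
Ptgs2: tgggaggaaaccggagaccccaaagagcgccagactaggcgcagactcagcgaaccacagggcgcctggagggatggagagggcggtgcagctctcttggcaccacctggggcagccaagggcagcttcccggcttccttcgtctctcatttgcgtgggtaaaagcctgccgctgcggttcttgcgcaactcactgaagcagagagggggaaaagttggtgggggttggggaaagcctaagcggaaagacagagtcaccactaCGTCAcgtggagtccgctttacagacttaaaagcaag
The half-site began 10 bases after the annotated gene start in Ramp1 and 13 bases after it in Ptgs2. Calcrl, Ptger2, Ptger4 and Adora2b had a window without it, and Adora2a was not matched, so 6 of 7 members had an entry. Of all 32851 promoter windows, 20.8% held the half-site and 1.79% the full TGACGTCA, which no member held. A match describes these letters only, not a site in use.

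Ramp1, the receptor partner, was at its lowest in the knockout library. Over all monocyte-macrophage cells it was at 35.5 CPM (1051 UMIs) in knockout 4, against 74.8 CPM (2915 UMIs) in control 1 and 75.9 CPM (5449 UMIs) in control 3. The knockout value was below both controls, which lay close together, and the fitted log2 fold change was -1.04 ± 0.15 (SE; 1 library against 2). None of the 7 members passed the adjusted threshold of 0.05 in edgeR's quasi-likelihood test across all genes, where 0.0744% of 14787 genes did (10 higher and 1 lower; 1205 genes had an unadjusted p under that value, and DESeq2 called 113). DESeq2 was fitted to 24577 genes, those with any UMI, and so not to the same 14787. The contrast of knockout with control chose the members, so nothing is read from the members' count. Fewer cells that express a gene and less RNA per cell cannot be told apart from such sums.

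Monocytes of the injured liver are mixed, so cells were gated on marker genes into 9 groups, and every group was summed per library. In order of gating these were Patrolling-like cells (Ace, Spn, Treml4), S100a8-positive cells, C1q-positive cells (a macrophage complement component), Gpnmb/Lpl-positive cells, Arg1-high cells, cells high in MHC class II and low in C1q, cells with Prtn3 or Serpinb1a (genes of early granule-forming myeloid cells), Vcan-positive cells and the remaining cells. Knockout 4 held 644 Arg1-high cells, 14.5% of its cells, against 120 in control 1 and 89 in control 3, so the mix of groups differed between libraries. It held 66 Prtn3/Serpinb1a-positive cells, its smallest group, against 56 and 147 in the controls.

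**Figure D1:**
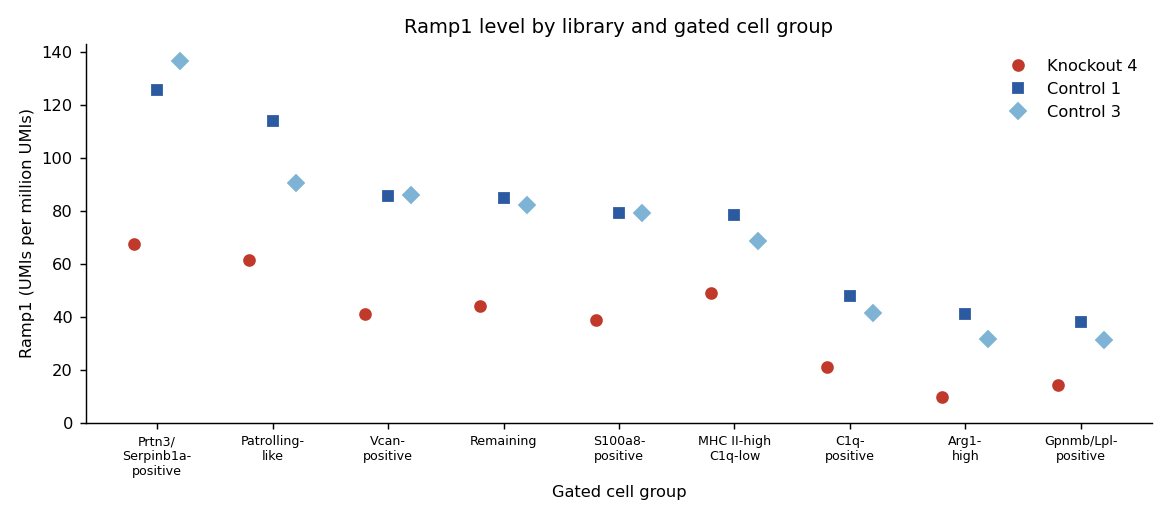
Ramp1 level (UMIs per 1000000 UMIs, vertical axis) in 9 gated cell groups (horizontal axis), with 1 point per library. The knockout point lies below both control points in each group, and in all 3 libraries Prtn3/Serpinb1a-positive cells are highest.

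Ramp1 was lower in knockout 4 than in both controls in each of the 9 groups. Among 14787 genes, 1.85% were below both controls in every group and 42.4% in the sum of all cells. A gene without a UMI in a control sum of any group could not enter the first share, which is therefore low for sparse genes. Vcan-positive cells, marked by a proteoglycan gene of classical monocytes, had 41.2 CPM in knockout 4, against 85.8 and 85.9 CPM in the controls. In Arg1-high cells Ramp1 was at 9.81 CPM in knockout 4, against 41.1 and 31.7 CPM, the largest gap of the 9 (log2 -1.89 against the mean of the controls). In the MHC class II-high cells the gap was the smallest, with 49.1 CPM in knockout 4, against 78.4 and 68.7 CPM (log2 -0.58). With each library reweighted to the controls' mix of groups, Ramp1 was at 39.3 CPM in knockout 4, against 77.2 and 73.0 CPM, a log2 difference of -0.93.

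Within the controls, the order of the 9 groups by Ramp1 level was the same in both libraries. It ran down through Prtn3/Serpinb1a-positive, Patrolling-like, Vcan-positive, remaining, S100a8-positive, MHC class II-high, C1q-positive, Arg1-high and Gpnmb/Lpl-positive cells. The Vcan-positive, remaining and S100a8-positive groups lay between 79.1 and 85.9 CPM there, and the ranges of Arg1-high (31.7 to 41.1 CPM) and Gpnmb/Lpl-positive cells (31.0 to 38.2 CPM) overlapped. In knockout 4 the first 2 places were the same, and C1q-positive, Gpnmb/Lpl-positive and Arg1-high cells were again the 3 lowest. The highest group exceeded the lowest 6.90 times in knockout 4, 3.29 times in control 1 and 4.41 times in control 3.

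This order was tested against Vcan-positive cells of the same library, with library as a block in edgeR, over 48 tests of the members in 7 comparisons, of which 22 passed an adjusted p of 0.05 over all genes. In C1q-positive cells, the macrophage-like group, Ramp1 was at 20.9 CPM in knockout 4 and at 47.9 and 41.3 CPM in control 1 and control 3. That was below Vcan-positive cells in 3 of 3 libraries (log2 -0.96 ± 0.09, edgeR adjusted p = 3.54e-07). In Gpnmb/Lpl-positive cells, which carry lipid-handling macrophage genes, it was at 14.3 CPM in knockout 4 and at 38.2 and 31.0 CPM in the controls. It was lower in 3 of 3 libraries there too (-1.33 ± 0.14, edgeR adjusted p = 3.15e-07), and likewise in Arg1-high cells (-1.50 ± 0.17, edgeR adjusted p = 3.10e-05).

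Prtn3/Serpinb1a-positive cells lay at the other end, with 67.7 CPM in knockout 4 and 125.6 and 136.8 CPM in the controls. Ramp1 was higher in them than in Vcan-positive cells in 3 of 3 libraries (log2 0.68 ± 0.13, edgeR adjusted p = 0.000179). Patrolling-like cells had 61.4 CPM in knockout 4 and 113.9 and 90.6 CPM in the controls, above Vcan-positive cells in 3 of 3 libraries but short of the threshold (0.31 ± 0.11, edgeR adjusted p = 0.0688), which it passed without control 3 (0.45, edgeR adjusted p = 0.0104). MHC class II-high cells (-0.12 ± 0.10, edgeR adjusted p = 0.446, and 0.0343 without knockout 4) and S100a8-positive cells (-0.09 ± 0.09, edgeR adjusted p = 0.701) were not separated from Vcan-positive cells. Without the library block, the C1q, Arg1 and Prtn3/Serpinb1a calls were lost (edgeR adjusted p = 0.0784, 0.0728 and 0.287) and the Gpnmb/Lpl call was kept at 0.0231.

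The background of these comparisons was wide, and the members' counts are read against it. In C1q-positive cells 37.9% of all genes tested passed, and 3 of 7 members did (Ramp1, Adora2b and Ptgs2). The shares were 29.1% in Gpnmb/Lpl-positive cells, where 4 of 7 passed, and 19.4% in Arg1-high cells, where 2 of 7 passed. In MHC class II-high cells 19.4% of genes passed and 4 of 7 members did, and in Patrolling-like cells 20% of genes and 5 of 7 members. In S100a8-positive cells 4.78% of genes passed and 1 of 7 members, and in Prtn3/Serpinb1a-positive cells 16.1% of genes and 3 of the 6 members that passed the filter on low counts, Calcrl being the one that did not. The C1q share is near the members' own, so nothing about the set follows from it.

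**Figure D2:**
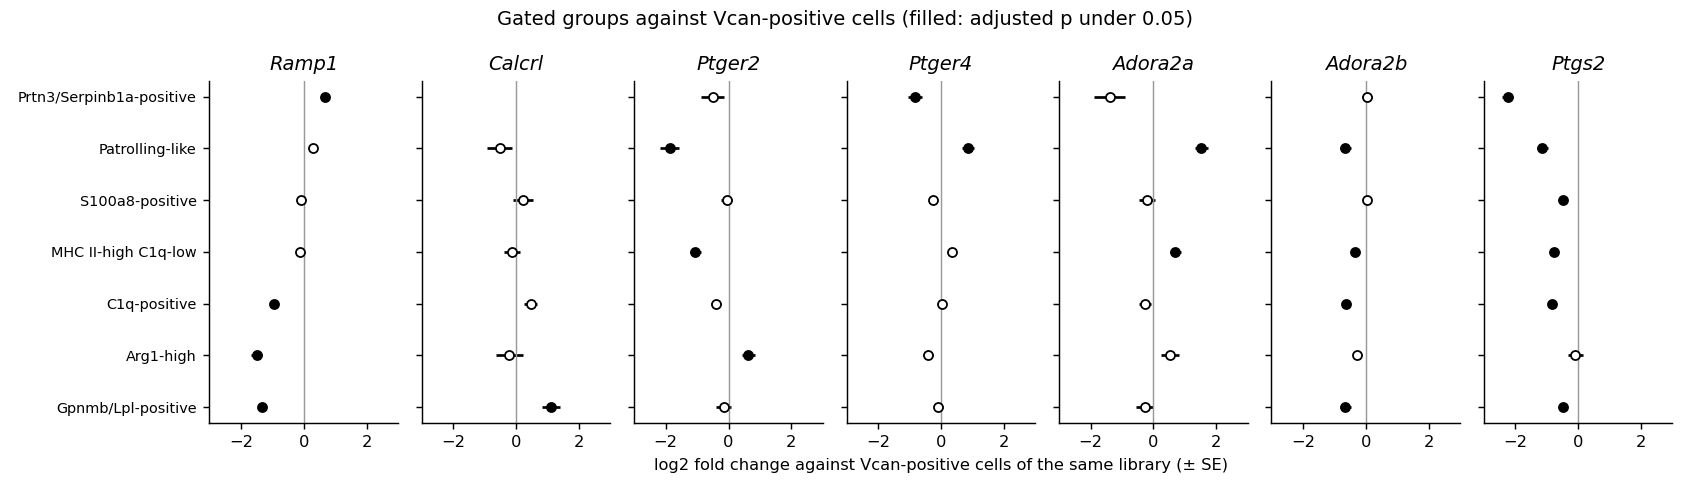
log2 fold change (horizontal axis, ± SE) of each gene in 7 gated groups (rows) against Vcan-positive cells of the same 3 libraries; filled points passed an adjusted p of 0.05. Ramp1 is lower in C1q-positive, Arg1-high and Gpnmb/Lpl-positive cells, whereas Calcrl is higher in Gpnmb/Lpl-positive cells.

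Calcrl, the 7-transmembrane partner of RAMP1 in the CGRP receptor, was sparse. It was at 2.74 CPM (81 UMIs) in knockout 4, against 8.26 CPM (322 UMIs) in control 1 and 4.67 CPM (335 UMIs) in control 3. The knockout was below both controls, but the controls themselves differed by a log2 value of 0.82, and the fitted log2 fold change was -1.18 ± 0.40. By group, the knockout was below both controls in 7 of 9 and between them in Patrolling-like and Arg1-high cells, where the lowest library held 3 UMIs and 1 UMI. Counts were low in the 7 groups too. The lowest library held 1 UMI in Prtn3/Serpinb1a-positive cells and 6 each in Gpnmb/Lpl-positive and MHC class II-high cells. It held 8 UMIs in S100a8-positive, 9 in Vcan-positive, 13 in C1q-positive and 21 in remaining cells. The share of all genes below both controls in 7 groups was not counted.

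Gpnmb/Lpl-positive cells had the highest Calcrl level in all 3 libraries, at 7.17 CPM in knockout 4 and 15.4 and 11.4 CPM in the controls. Vcan-positive cells had 1.96 CPM in knockout 4 and 9.34 and 4.47 CPM in the controls. Calcrl was higher in Gpnmb/Lpl-positive than in Vcan-positive cells in 3 of 3 libraries (log2 1.12 ± 0.29, edgeR adjusted p = 0.00579), a call kept in 5 of 8 alternatives, in which its adjusted p ran from 0.00146 to 0.0802, and lost without control 3 (0.93, edgeR adjusted p = 0.0589). The group in which Calcrl was highest was thus the one in which Ramp1 was lowest in both controls and second lowest in knockout 4.

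Calcrl UMIs were found in some Ramp1-positive cells, though in few of them. In knockout 4, 15 of 778 Ramp1-positive cells (cells with at least 1 UMI) held a Calcrl UMI, which is 1.93% (exact Clopper-Pearson 95% interval 1.08 to 3.16%). In control 1 it was 123 of 1683 cells, 7.31% (6.11 to 8.66%), and in control 3 it was 148 of 3071 cells, 4.82% (4.09 to 5.64%). The intervals cover counting error only. The knockout share lay below both control shares, and the intervals of the 3 libraries did not overlap at these depths, knockout cells being the shallowest. In gated lymphocytes, Calcrl UMIs were found in 2 of 14 cells in knockout 4, 1 of 29 in control 1 and 2 of 27 in control 3. These shares were 14.3% (1.78 to 42.8%), 3.45% (0.0873 to 17.8%) and 7.41% (0.91 to 24.3%). Each interval held the share in Ramp1-positive cells of its library, so lymphocytes were too few to set a background level. Whether lymphocytes express Calcrl themselves, and the part of background in the Ramp1-positive shares, was not tested.

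Over all groups together, Calcrl was little more frequent beside Ramp1 than without it. Among Ramp1-negative cells, 1.70% (1.30 to 2.17%) held a Calcrl UMI in knockout 4, 5.95% (5.03 to 6.97%) in control 1 and 3.56% (3.03 to 4.15%) in control 3. Ramp1-positive cells were also deeper, with medians of 7431.5, 9670 and 8937 UMIs in knockout 4, control 1 and control 3, against 6723, 8065 and 7654 UMIs in Ramp1-negative cells. With every cell thinned to 3000 UMIs, the shares in Ramp1-positive cells were 0.548% (2 of 365 cells; 0.0664 to 1.97%) in knockout 4, 1.63% (11 of 677; 0.814 to 2.89%) in control 1 and 1.31% (18 of 1375; 0.778 to 2.06%) in control 3. At this depth the intervals of all 3 libraries overlapped. Ramp1-negative cells then had 0.572%, 2.36% and 1.43%. With all groups pooled, Calcrl was thus no more frequent in Ramp1-positive cells at equal depth in any of the 3 libraries, with overlapping intervals. Within groups, at full depth, the direction differed between groups and libraries. MHC class II-high cells had 5.48% in Ramp1-positive against 0.743% in Ramp1-negative cells in knockout 4, and 5.80% against 4.35% and 5.73% against 3.15% in the controls. Vcan-positive cells had 0.694% against 1.46%, 6.90% against 7.49% and 4.51% against 3.23%. The part of group mix in the pooled shares was not tested.

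Read the other way, 19.5% of Calcrl-positive cells in knockout 4 held a Ramp1 UMI, against 46.4% in control 1 and 49.0% in control 3. Over all cells a Ramp1 UMI was found in 17.6% in knockout 4, against 41.3% and 41.5% in the controls, and in 9.90% against 19.0% and 20.5% when thinned. A cell without a Calcrl UMI is not shown to lack Calcrl, since the mean was 0.0183 UMIs per cell in knockout 4, against 0.0791 and 0.0453 in the controls. Requiring 2 UMIs of Ramp1 gave Calcrl in 1.50% of such cells in knockout 4, against 7.15% and 4.88%.

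**Figure D3:**
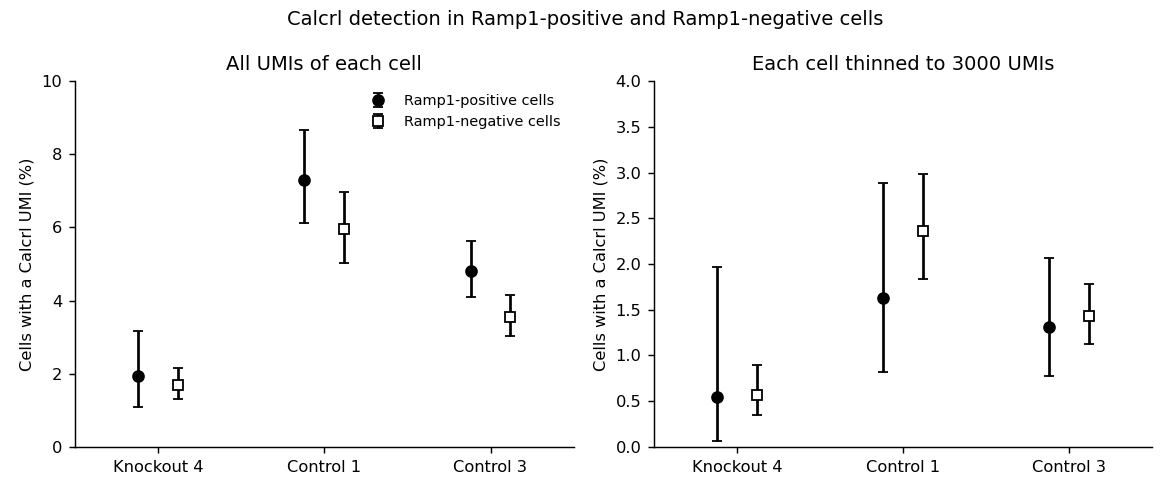
Share of cells with a Calcrl UMI (vertical axis, percent) among Ramp1-positive (filled) and Ramp1-negative (open) cells of each library, with exact 95% intervals, from all UMIs (left) and with each cell thinned to 3000 UMIs (right). The filled and open intervals overlap in every library of the right panel.

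Endothelial cells are a known site of Calcrl, so endothelial markers were measured beside it. Their summed level over 6 genes was 4.77 CPM in knockout 4, against 4.85 and 4.56 CPM in the controls, with none of the 6 at 0. An endothelial marker UMI was found in 1.30% of Calcrl-positive against 2.87% of Calcrl-negative cells of knockout 4, in 6.42% against 3.91% in control 1, and in 5.30% against 3.93% in control 3. Calcrl-positive cells were deeper, with medians of 7486, 11335 and 10318.5 UMIs in knockout 4, control 1 and control 3. Calcrl-negative cells had medians of 6859.5, 8637 and 8098.5 UMIs. Cells with at least 3 UMIs of these markers had been gated out before. The part of endothelial RNA in the Calcrl values was not tested.

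Ramp1 was also counted in gated lymphocytes, of which there were 14 in knockout 4, 29 in control 1 and 27 in control 3. Ramp1 UMIs were found in 0 of 14, 4 of 29 and 5 of 27 of them, at 0 CPM (a count of 0 allows up to 58.9 CPM), 49.8 CPM and 71.4 CPM. The median lymphocyte had 2634 UMIs in knockout 4, 3084 in control 1 and 2976 in control 3. These cells were no clean blank, because Lyz2, a myeloid gene, stood in them at 40.9%, 50.3% and 31.7% of its level in the monocyte-macrophage cells. In control 3 the lymphocytes' Ramp1 level was 94.0% of the monocyte level. It rested on few cells, with 10 UMIs in the 4 positive cells of control 1 and 11 UMIs in the 5 of control 3. Whether these UMIs came from free RNA, doublets or the lymphocytes themselves was not tested. The part of free RNA in the Ramp1 values was not tested either.

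Of the 9 other genes listed with the calcitonin family, 3 passed the filter on low counts, 2 above and 1 below both controls, and none was called in edgeR. Calcr, the calcitonin receptor, which can also pair with RAMP1, and the genes Calca, Calcb, Iapp and Adm2 had 0 UMIs in all 3 libraries, which allows at most 0.101 CPM in knockout 4 and 0.0770 and 0.0418 CPM in the controls. Crcp, which encodes an intracellular protein linked to CGRP receptor signalling, was at 34.7 CPM in knockout 4, against 33.0 and 31.2 CPM (log2 0.16 ± 0.14). Ramp2 had 4 UMIs in knockout 4 and 17 and 21 in the controls, and adrenomedullin (Adm) had 3, 0 and 5 UMIs. Ramp3, the third partner of CALCRL, had 83 UMIs (2.81 CPM) in knockout 4, against 27 UMIs (0.693 CPM) and 42 UMIs (0.585 CPM). The knockout level lay above both controls, and the log2 fold change was 2.19 ± 0.35 (edgeR adjusted p = 0.182, not called). Of the 83 UMIs, 35 were in Arg1-high cells, and without those cells the log2 value was 1.70.

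Of the prostaglandin E2 receptors, Ptger2 lay above both controls and Ptger4 just below both. Ptger2 (EP2) was at 15.6 CPM (462 UMIs) in knockout 4, against 9.55 CPM (372 UMIs) in control 1 and 8.04 CPM (577 UMIs) in control 3. The knockout was above both controls, with a fitted log2 fold change of 0.88 ± 0.19. Ptger4 (EP4) was at 40.1 CPM (1187 UMIs) in knockout 4, against 41.0 CPM (1599 UMIs) and 45.7 CPM (3283 UMIs), with a fitted log2 fold change of -0.07 ± 0.16.

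Ptger2 was above both controls in each of the 9 groups, as were 1.42% of 14787 genes, and in the sum of all cells 30.3% of genes were. A gene without a UMI in the knockout sum of any group could not enter the first share. The gap was smallest in Arg1-high cells, with 23.6 CPM in knockout 4, against 22.3 and 17.6 CPM. It was largest in Prtn3/Serpinb1a-positive cells, with 23.2 CPM in knockout 4, against 5.98 and 3.44 CPM, where the lowest library held 3 UMIs. In Vcan-positive cells Ptger2 was at 19.2 CPM in knockout 4, against 11.4 and 10.1 CPM. Reweighted to the controls' mix, the levels were 13.4 CPM in knockout 4, against 9.49 and 8.01 CPM, a log2 difference of 0.61.

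Arg1-high cells had the most Ptger2 and Patrolling-like cells the least in all 3 libraries. Patrolling-like cells had 5.24 CPM in knockout 4 and 4.05 and 1.92 CPM in the controls, and were below Vcan-positive cells in 3 of 3 libraries (log2 -1.87 ± 0.31, edgeR adjusted p = 0.000345). MHC class II-high cells, at 8.49 CPM in knockout 4 and 5.01 and 5.14 CPM in the controls, were also below them (-1.05 ± 0.18, edgeR adjusted p = 0.00122). The difference of Arg1-high from Vcan-positive cells passed narrowly (0.63 ± 0.20, edgeR adjusted p = 0.0452) and was kept in 0 of 9 alternatives, in which the adjusted p ran from 0.0501 to 0.619, the fits with each library left out among them (log2 0.51 to 0.88).

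Ptger4 was highest in Patrolling-like cells and lowest in Prtn3/Serpinb1a-positive cells in all 3 libraries. Patrolling-like cells had 98.8 CPM in knockout 4, against 61.3 and 58.1 CPM in the controls. They were above Vcan-positive cells, which had 30.1 CPM in knockout 4 and 39.8 and 46.7 CPM in the controls (log2 0.85 ± 0.19, edgeR adjusted p = 0.00470). Without knockout 4 the value was 0.44 and the call was lost (edgeR adjusted p = 0.0549). The log2 value of knockout over the controls' mean was 0.73 in Patrolling-like cells and -0.52 in Vcan-positive cells, on opposite sides, a difference that was not tested. Prtn3/Serpinb1a-positive cells were below Vcan-positive cells (-0.83 ± 0.21, edgeR adjusted p = 0.00602), a call kept in 3 of 8 alternatives and lost without control 1 (-0.75, edgeR adjusted p = 0.0739) or control 3 (-0.73, edgeR adjusted p = 0.164).

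Neither adenosine receptor stood clear of the spread between the controls. Adora2a was at 11.3 CPM (334 UMIs) in knockout 4, against 13.7 CPM (534 UMIs) and 9.04 CPM (649 UMIs) in the controls, so the knockout lay between them (fitted log2 fold change 0.05 ± 0.27). Adora2b was at 44.7 CPM (1322 UMIs) in knockout 4, against 24.5 CPM (954 UMIs) in control 1 and 41.4 CPM (2972 UMIs) in control 3. The knockout lay above both, by little over control 3, and the fitted log2 fold change of 0.48 ± 0.31 ran from 0.11 without control 1 to 0.90 without control 3.

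Adora2a was highest in Patrolling-like cells in all 3 libraries, at 29.9 CPM in knockout 4 and 30.1 and 20.4 CPM in the controls, and lowest in Prtn3/Serpinb1a-positive cells, at 1.93 CPM and 1.99 and 4.30 CPM. Patrolling-like cells were above Vcan-positive cells in 3 of 3 libraries (log2 1.53 ± 0.21, edgeR adjusted p = 7.96e-05), a call kept in 8 of 8 alternatives. MHC class II-high cells were next (0.70 ± 0.17, edgeR adjusted p = 0.0109). Adora2b ran the other way and was below Vcan-positive cells in Patrolling-like cells (-0.65 ± 0.16, edgeR adjusted p = 0.00912). That call was kept in 4 of 8 alternatives and lost without knockout 4 (-0.51, edgeR adjusted p = 0.0885). It was also below them in C1q-positive cells (-0.63 ± 0.10, edgeR adjusted p = 7.83e-05, kept in 8 of 9), where knockout 4 had 33.9 CPM and the controls 18.3 and 34.9 CPM. Its calls in Gpnmb/Lpl-positive cells (-0.65 ± 0.17, edgeR adjusted p = 0.00674) and MHC class II-high cells (-0.34 ± 0.10, edgeR adjusted p = 0.0247) were lost without control 3 (-0.37 and -0.22, edgeR adjusted p = 0.198 and 0.364), the second also without control 1 (edgeR adjusted p = 0.124).

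Patrolling-like cells thus differed from Vcan-positive cells within each receptor pair in opposite directions, with Ptger4 and Adora2a higher and Ptger2 and Adora2b lower in 3 of 3 libraries each. Prostaglandin E2 binds both EP receptors and adenosine both Adora2a and Adora2b, the second with lower affinity. The difference between receptors was not tested.

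**Figure D4:**
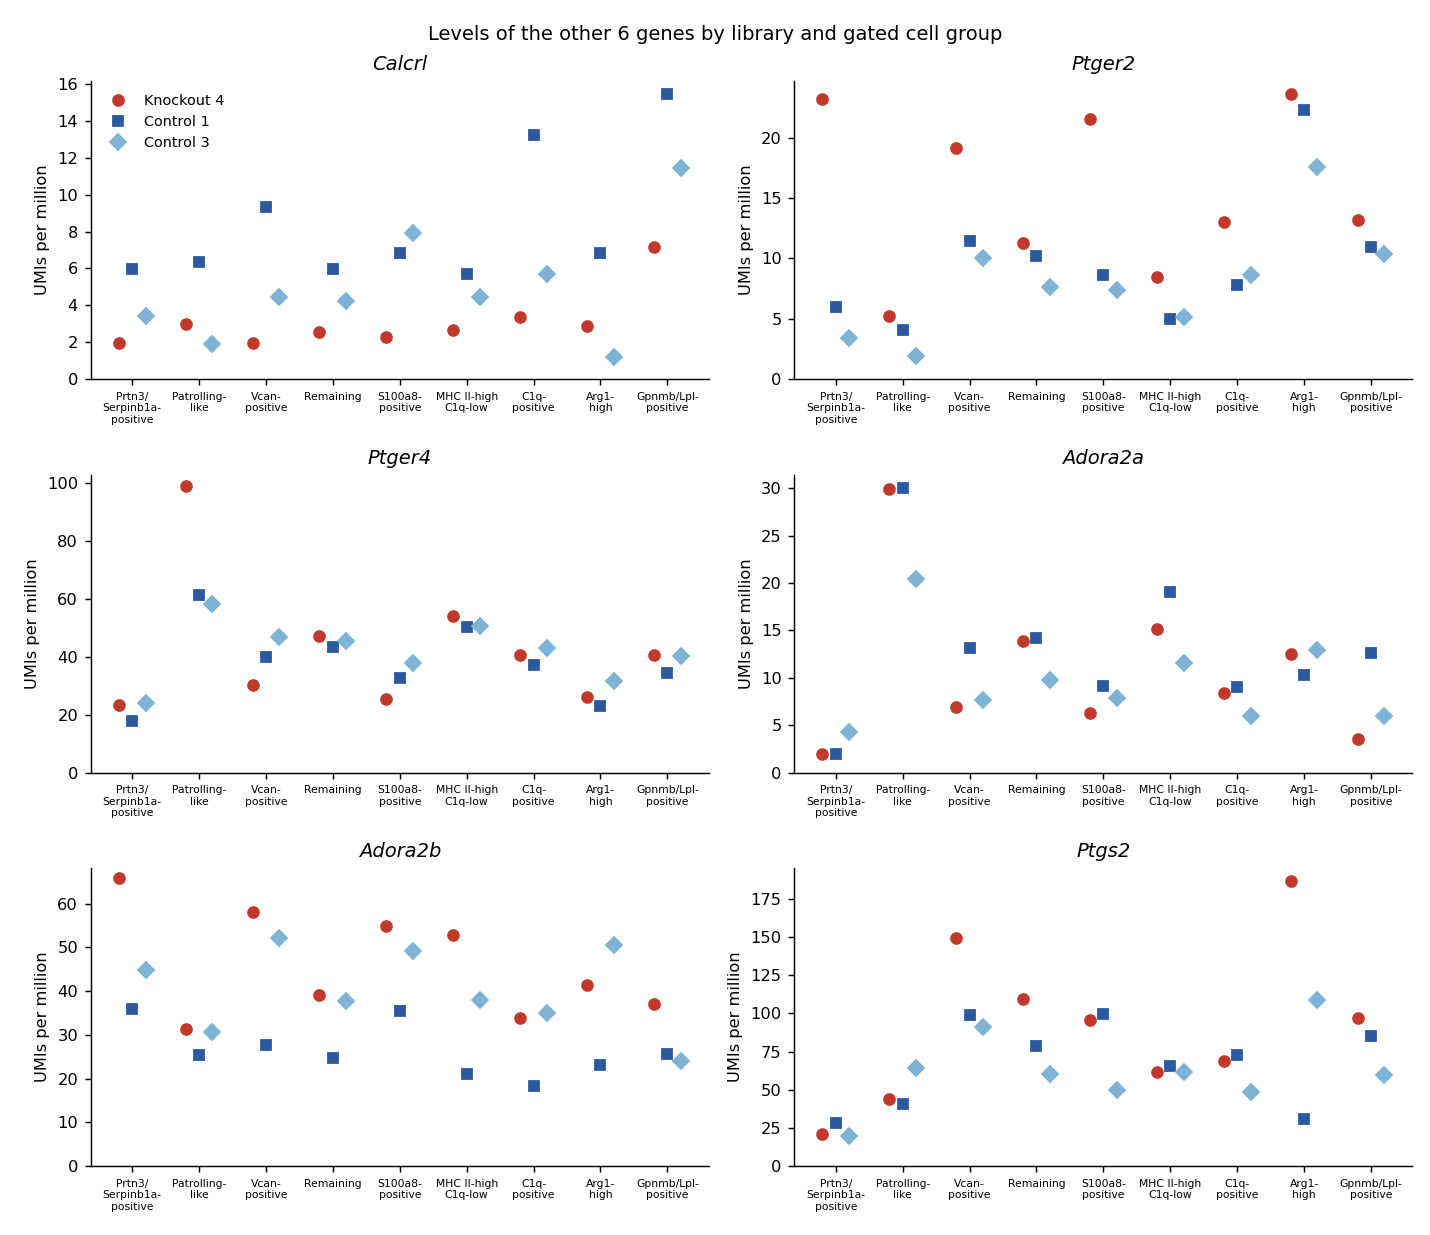
Levels of Calcrl, Ptger2, Ptger4, Adora2a, Adora2b and Ptgs2 (UMIs per 1000000 UMIs, vertical axes with their own scales) in 9 gated groups (horizontal axes), with 1 point per library. Ptger4 and Adora2a peak in Patrolling-like cells and Ptger2 is lowest there in all 3 libraries.

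As a group, the 4 receptors Ptger2, Ptger4, Adora2a and Adora2b left a UMI of at least 1 of them in 45.0% of knockout cells (43.5 to 46.5%), against 48.8% (47.3 to 50.4%) and 51.1% (49.9 to 52.2%) of cells in control 1 and control 3. Thinned to 3000 UMIs per cell, the order turned, with 27.5% (26.0 to 29.0%) in knockout 4, against 22.9% (21.6 to 24.3%) and 24.3% (23.2 to 25.3%). Ptger2 was found in 8.96% of knockout cells, against 8.06% and 6.91%, and at equal depth in 4.18%, against 2.92% and 2.37%. Ptger4 was found in 10.9% of knockout cells at equal depth, against 10.7% and 12.5%.

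Ptgs2, the enzyme upstream of the EP receptors, was at 112.2 CPM (3318 UMIs) in knockout 4, against 76.3 CPM (2975 UMIs) in control 1 and 67.5 CPM (4844 UMIs) in control 3. The knockout was above both controls (fitted log2 fold change 0.69 ± 0.15), and 0.48 without Arg1-high cells. In Arg1-high cells it was at 187.0 CPM in knockout 4, against 30.8 CPM (36 UMIs) and 109.1 CPM. In Vcan-positive cells it was at 149.2 CPM in knockout 4, against 99.3 and 91.0 CPM. The knockout was above both controls in 4 of 9 groups and between them in the other 5.

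Ptgs2 transcripts were held by few cells. Cells with at least 3 Ptgs2 UMIs per 10000, a limit chosen after values were seen, made up 11.9% of knockout cells, against 8.28% and 7.22% of control cells. They held 84.6% of all Ptgs2 UMIs in knockout 4, against 72.4% and 65.4%. Ramp1 was lower in these cells than in the other cells of the same library, with 23.9 CPM against 37.1 CPM in knockout 4, 63.5 against 75.8 CPM in control 1 and 60.1 against 77.2 CPM in control 3. Ptger2 had 23.3 against 14.6 CPM in knockout 4, 9.82 against 9.52 CPM in control 1 and 10.6 against 7.84 CPM in control 3. The control 1 values of Ptger2 lay close together, and these differences were not tested. The mix of groups differed too. Arg1-high cells made up 23.0% of the Ptgs2-rich cells in knockout 4, against 14.5% of all its cells. In control 1 these shares were 1.19% and 2.95%, and in control 3 they were 2.06% and 1.20%. The part of group mix in the Ramp1 and Ptger2 values was not tested. The limit per 10000 is reached with fewer UMIs in a shallower cell, and knockout cells were the shallowest. Cells with at least 3 Ptgs2 UMIs at any depth were 433 of 4433 in knockout 4. In control 1 they were 387 of 4071, and in control 3 they were 626 of 7400. The part of depth in the shares of Ptgs2-rich cells and of Ptgs2 UMIs was not tested.

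Ptgs2 was the member that differed from Vcan-positive cells most often, in 6 of 7 comparisons, and always lower. Prtn3/Serpinb1a-positive cells had 21.3 CPM in knockout 4 and 27.9 and 19.8 CPM in the controls, the lowest level in all 3 libraries (log2 -2.25 ± 0.19, edgeR adjusted p = 1.81e-10). Patrolling-like cells (-1.15 ± 0.17, edgeR adjusted p = 0.000170), C1q-positive cells (-0.83 ± 0.10, edgeR adjusted p = 6.67e-06) and MHC class II-high cells (-0.77 ± 0.12, edgeR adjusted p = 0.000624) were lower in 3 of 3 libraries. The S100a8-positive call (-0.48 ± 0.11, edgeR adjusted p = 0.00598) held in 2 of 3 libraries and 4 of 9 alternatives, and was lost without control 3 (-0.35, edgeR adjusted p = 0.290) or knockout 4 (-0.39, edgeR adjusted p = 0.0597). The Gpnmb/Lpl-positive call (-0.47 ± 0.11, edgeR adjusted p = 0.00329) was kept in 6 of 9 alternatives.

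The enzymes around Ptgs2 gave no call between knockout and control. Of 13 genes of prostanoid synthesis and removal, 10 passed the filter on low counts, 3 lay above both controls and 5 below, with a median log2 fold change of -0.11 beside -0.009 over all genes. Over all genes 30.3% lay above both controls and 42.4% below, and the counts of the lists that follow are read against those shares. Pla2g4a, which releases arachidonic acid, was at 70.2 CPM in knockout 4, against 56.2 and 53.5 CPM (log2 0.40 ± 0.14). Hpgds, a prostaglandin D2 synthase, was at 14.03 CPM in knockout 4, against 23.7 and 17.8 CPM (-0.51 ± 0.22). Hpgd, which inactivates prostaglandin E2, was at 30.8 CPM in knockout 4, against 36.7 and 95.1 CPM, so that the controls differed more from each other than control 1 from the knockout (-1.06 ± 0.54). Of 7 other prostanoid receptors, Ptger1 and Ptgir passed the filter and neither was called (log2 -0.60 ± 0.45 and -0.08 ± 0.26).

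Adenosine handling gave no call either, with 8 of 9 genes past the filter, 2 above both controls and 4 below (median log2 -0.03). Nt5e (CD73), the ectoenzyme that makes adenosine from AMP, was at 2.87 CPM in knockout 4, against 0.693 and 0.655 CPM (log2 2.14 ± 0.34, edgeR adjusted p = 0.180). Its knockout level was above both controls, and without Arg1-high cells the value was 1.80. Adora3, a Gi-coupled adenosine receptor, was at 3.31 CPM in knockout 4, against 2.05 and 2.24 CPM (0.67 ± 0.29), and Adk, which phosphorylates adenosine, was at 14.5 CPM, against 20.5 and 16.7 CPM (-0.31 ± 0.19). Among 10 other Gs-coupled receptors, 5 passed the filter, 1 lay above both controls and 2 below (median -0.34). Htr7, a serotonin receptor, was at 1.59 CPM in knockout 4, against 0.385 and 0.711 CPM, the list's member above both controls (1.52 ± 0.48). Gpr65, a proton sensor, was at 104.1 CPM in knockout 4, against 143.6 and 134.8 CPM (-0.37 ± 0.15), and Hrh2, a histamine receptor, at 3.21 CPM, against 4.52 and 5.13 CPM (-0.54 ± 0.27).

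Downstream of the receptors, 13 of 21 genes of cAMP production and effectors passed the filter, of which 10 lay below both controls and 1 above (median log2 -0.16), where 42.4% and 30.3% of all genes did. Prkar2b, a regulatory subunit of protein kinase A, was at 5.04 CPM in knockout 4, against 8.73 and 8.64 CPM (-0.74 ± 0.22). Prkar1a, another regulatory subunit, was the one above both, at 212.1 CPM in knockout 4, against 185.7 and 172.4 CPM (0.29 ± 0.14). Gnas, which encodes the Gs alpha subunit, was at 409.8 CPM in knockout 4, against 491.1 and 479.0 CPM (-0.20 ± 0.14). All 9 phosphodiesterases, the enzymes that break cyclic nucleotides down, passed the filter, 3 above and 3 below both controls (median -0.02). Pde4d was at 13.3 CPM in knockout 4, against 7.42 and 4.70 CPM (1.20 ± 0.29, edgeR adjusted p = 0.398). Pde3b was at 12.0 CPM, against 7.11 and 8.35 CPM (0.67 ± 0.21), and Pde8a at 16.3 CPM, against 12.5 and 10.8 CPM (0.53 ± 0.18).

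Genes of the CREB family and known cAMP-response genes were spread in both directions. Of 20, 19 were found by symbol (Areg was not), and all 19 passed the filter, 7 above and 8 below both controls (median log2 0.05). Fosb, an immediate-early gene, was at 31.5 CPM in knockout 4, against 75.5 and 62.1 CPM (-1.08 ± 0.18, edgeR adjusted p = 0.195). Vegfa, an angiogenic factor, was at 46.9 CPM in knockout 4, against 20.9 and 12.5 CPM (1.55 ± 0.28, edgeR adjusted p = 0.240). Both were uncalled in edgeR and called in DESeq2 (adjusted p = 0.00182 for Fosb and 0.000327 for Vegfa). Thbs1, which encodes thrombospondin-1, was at 1060 CPM in knockout 4, against 238.9 and 510.5 CPM (1.54 ± 0.41). Platelet markers, a list of 5 genes with none at 0, summed to 375.4 CPM in knockout 4, against 165.9 and 130.7 CPM, and their part in these values was not tested.

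The 6 genes of receptor desensitization all passed the filter, with 0 above and 3 below both controls (median log2 -0.11), near the 42.4% of all genes below both. Grk6, a receptor kinase, was at 27.8 CPM in knockout 4, against 42.2 and 40.9 CPM (-0.53 ± 0.15), and Grk2 was at 149.0 CPM, against 195.5 and 184.8 CPM (-0.30 ± 0.15). Arrb2, an arrestin, was at 99.7 CPM in knockout 4, against 119.0 and 108.4 CPM (-0.14 ± 0.15). The calls in these 9 pathway lists were 0 higher and 0 lower in edgeR and 1 higher and 1 lower in DESeq2. At an unadjusted p under 0.05 the edgeR counts ran from 0 to 6 genes per list, where 8.15% of all genes passed.

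**Figure D5:**
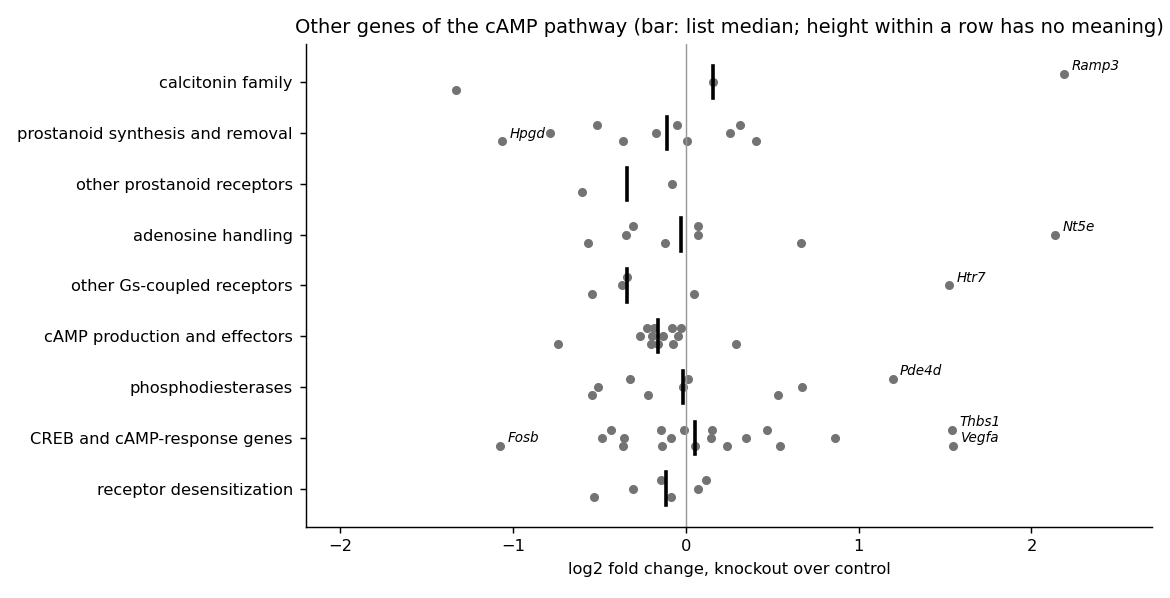
log2 fold change of knockout over control (horizontal axis) for the genes of 9 pathway lists that passed the filter on low counts (rows, 1 point per gene), with the list median as a bar. Medians lie between -0.34 and 0.16, and Ramp3, Nt5e, Vegfa, Thbs1 and Htr7 lie furthest to the right; none was called in edgeR.

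The genes whose level followed Ramp1 most closely were sought over the 27 sums of 3 libraries and 9 groups, among 7367 genes at a mean of 10 CPM or more. Pearson's r of log2(CPM + 1) was 0.95 for Pld4, 0.95 for Rpl35a, 0.95 for Bckdha, 0.94 for Padi2 and 0.94 for Il16. The 27 sums share 3 libraries and are not independent, so these are descriptions. Pld4 encodes a lysosomal nuclease and Rpl35a a ribosomal protein.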

How the data were processed

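Single-cell RNA 3' ends of sorted liver monocytes were sequenced in 3 libraries. The authors deposited raw UMI counts per gene and barcode, made per the submitters' processing notes with bcl2fastq and Cell Ranger 3.0.2 on GRCm38. The strand setting of the counting is not given in the sources used. Of 53802 feature identifiers, 53620 (99.7%) were in GENCODE M21. The 7 members, the gene lists, markers and tests were chosen with earlier results of these data known; gate thresholds were set on the markers' distributions.

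Cells needed at least 500 detected genes and no more than 10% mitochondrial UMIs. Lymphocytes, neutrophils, endothelial cells, dendritic cells and mast cells (24, 44 and 49 cells in knockout 4, control 1 and control 3) were gated out, and the rest were assigned to the first of 9 groups whose marker sum passed its threshold (Patrolling-like 8, S100a8 20, C1q 20, Gpnmb/Lpl 20, Arg1 20, MHC class II 50, Prtn3/Serpinb1a 4 and Vcan 4 UMIs per 10000). No doublet caller was run; leaving out cells over 2 times the library's median UMI count was an alternative. Counts were summed per library and group and given as CPM of the sum's total. They were tested with edgeR 4.0.16 in R 4.3.3 (TMM, filterByExpr, glmQLFit, two-sided glmQLFTest, Benjamini-Hochberg over all genes tested, threshold 0.05), which was also tested on simulated data. In 3 simulated runs of knockout against control, edgeR recovered 55.0% of log2 changes of 1 and 100% of log2 changes of 2. Of its calls there, 6.18% were false. A gene or list without a call is thus not shown to be unchanged. Knockout against control had 1 residual degree of freedom, from the 2 controls, and the knockout library was taken to vary as they do. edgeR also drew the spread of each gene towards that of all genes, with 4.86 prior degrees of freedom. The SE is therefore not the scatter of the 2 controls alone. Groups were compared with library as a block, because both sums of a pair come from the same library. Each of these comparisons had 2 residual degrees of freedom. The prior ones ran from 10.4 (MHC class II-high cells) to 27.2 (Prtn3/Serpinb1a-positive cells). Small p-values of groups therefore rest on the spread of all genes as well as on 3 libraries. Thinning drew 3000 UMIs per cell and left out 747 shallower cells of knockout 4, 512 of control 1 and 695 of control 3. Beyond the 7 members, genes were named as the members of each list with the smallest p, up to 3, and any called. Alternatives were DESeq2 1.42.0, no low-count filter, other scaling, thinning, doubled gate thresholds, no block, leaving out each library, and, added after seeing the data, reweighting to the control mix of groups. Depth limits precision most for Calcrl (81 to 335 UMIs per library).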

Additional observations from a re-analysis of the deposited data

Results flagged for a closer look

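Ptger4, the EP4 receptor, stood on opposite sides of the controls in different kinds of cells. In Patrolling-like cells every library comparison put knockout 4 above the controls (98.8 CPM, against 61.3 and 58.1 CPM; log2 0.73 over the controls' mean), and in Vcan-positive cells knockout 4 was below both (30.1 CPM, against 39.8 and 46.7 CPM; log2 -0.52). Of the 8 groups with at least 10 UMIs in every library, knockout 4 was above both controls in 4 and below both in 2. Apart from Patrolling-like cells, the groups above both were close to the higher control, control 3. The values were 40.65 against 40.31 CPM in Gpnmb/Lpl-positive, 47.19 against 45.55 CPM in remaining and 54.06 against 50.54 CPM in MHC class II-high cells. The groups below both were Vcan-positive and S100a8-positive cells (log2 -0.48 over the controls' mean in the second). With 1 knockout library the difference between groups was not tested.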

How the results depend on the processing

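Knockout against control called 11 genes; it called 22 with library totals, 113 with DESeq2, 444 without a low-count filter, 31 with thinned cells, 2 in Vcan-positive cells and 7 without Arg1-high cells. The Ramp1 log2 value of -1.04 was -0.89 without Arg1-high cells and -0.93 at the control mix of groups, and from -1.10 to -1.04 with either control left out. Library totals moved the median of all genes to -0.06.

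Genes called without the replicate block (library), with DESeq2 and with a library left out numbered 698, 873 and 1010 to 2041 in Patrolling-like cells (1832 in the reported fit), 1933, 2113 and 3207 to 3899 in C1q-positive (3991), 1597, 1539 and 2059 to 2794 in Gpnmb/Lpl-positive (2837), 662, 1016 and 1222 to 1738 in Arg1-high (1920), 449, 893 and 1042 to 2277 in MHC class II-high (1932), 6, 84 and 125 to 605 in S100a8-positive (460) and 182, 594 and 711 to 887 in Prtn3/Serpinb1a-positive cells (1424). Thinned cells gave 2206 (C1q), 1381 (Gpnmb/Lpl), 1054 (Arg1), 1108 (MHC class II), 240 (S100a8) and 487 (Prtn3/Serpinb1a), and a doubled threshold 1193 (Gpnmb/Lpl) and 227 (S100a8); the doubled Prtn3/Serpinb1a and Patrolling-like gates were not run, with under 30 cells in a library. Thinning put the share of Ramp1-positive cells with Calcrl at 0.548% in knockout 4, 1.63% in control 1 and 1.31% in control 3, as its lower depth per cell implies.

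Signs turned for Adora2a (0.05) to -0.24 without control 3, -0.41 in Vcan-positive cells and -0.0042 with library totals, for Ptger4 (-0.07) to 0.005 without control 3 and 0.01 at the control mix of groups, for Ptgir (-0.08) to 0.10 with thinned cells and 0.19 without control 3 (-0.35 without control 1), for Adk (-0.31) to 0.038 in Vcan-positive cells, and for Ramp1 in MHC class II-high cells (-0.12) to 0.038 without control 3 (-0.24 without knockout 4); the cause was not tested. Of the other settings for single genes, 429 kept direction and were counted as unchanged. Where a test was read, that meant the same side of the threshold. For the members in knockout against control, it meant a shift smaller than the spread of the controls. For the pathway genes with a control left out, it meant the same sign only, whatever the size of the shift. A further 47 lost and 13 gained the threshold, and 6 moved further with the same sign. No paired analysis was possible because knockout and control share no replicate number; groups of cells were paired by library. With either control left out, knockout against control gives values and no test.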
